A study of Mustela putorius furo and Mus musculus with 4 samples.

Results

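The metallothioneins Mt1, Mt2 and Mt3 are 3 of the 17170 genes in a table of unique molecular identifier (UMI) counts from single cells of mouse cortex, and their levels are given here in radial glia (RG), multipotent intermediate progenitor cells (MIPCs), pyramidal neuron intermediate progenitor cells (PyN-IPCs), pyramidal neurons (PyNs) and microglia of each genotype. The genes were chosen by name, with their levels across cell types and genotypes in these same counts already known, so the levels and ratios below are a description and carry no test. The control embryos are labeled wild type and, by the study's methods, were littermates with floxed Smo alleles (Smo F/F). The Smo-cKO embryos were hGFAP-Cre;Smo F/F, in which Cre under the human GFAP promoter deletes Smo, the transducer of Sonic Hedgehog signaling, from radial glia and the cells they give rise to. Both groups were on the CD1 background, received the dye CellTrace Yellow in the lateral ventricle at embryonic day 17 and were collected at day 18, so that the sorted, dye-positive cells stand for those that lined or recently left the ventricle and not for the whole cortex. There was 1 library per genotype, and a difference between genotypes cannot be told apart from one between embryos or between preparations.

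The table does not name the genotype of a cell. Barcodes with the suffix that 10524 cells carry were taken as control and those with the suffix of 7596 cells as Smo-cKO, from the cell numbers the study states, and every direction below would turn if that were wrong. Smo, the deleted gene, had 102 UMIs in the control RG-like cells and 3 in the Smo-cKO RG-like cells, and its target Gli1 had 26 and 0. After the filter, 10498 control cells held 51657121 UMIs (median 4033.5 per cell) and 7209 Smo-cKO cells held 42057782 (median 4836). Cells were clustered without the 3 metallothioneins and other metal-handling genes, and clusters were named by markers, which gave 23 clusters.

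Metallothioneins are small, cysteine-rich proteins that bind zinc and copper through their thiol groups. Mt1 and Mt2 are made in many tissues, and their transcription is raised by zinc through the factor MTF1, by glucocorticoids and by oxidative and inflammatory stress. Mt3 is the brain form, known from neurons and astrocytes and first described as an inhibitor of neurite growth, and it is not induced by metals in the way Mt1 and Mt2 are.

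The 3 genes lie side by side on the plus strand of chromosome 8. In the GRCm38 build with GENCODE M21 annotation, Mt3 spans chr8:94152607-94154146, Mt2 spans chr8:94172664-94173568 and Mt1 spans chr8:94179082-94180327. The gap from Mt3 to Mt2 is 18517 bases and that from Mt2 to Mt1 is 5513 bases. Each gene has 3 exons. The coding sequences are shown because they carry the feature that defines the family and because they show how far the members differ in coding sequence. Capitals mark cysteine codons (TGC or TGT), of which each gene has 20, among 61 codons in Mt1 and Mt2 and 68 in Mt3.
Mt1: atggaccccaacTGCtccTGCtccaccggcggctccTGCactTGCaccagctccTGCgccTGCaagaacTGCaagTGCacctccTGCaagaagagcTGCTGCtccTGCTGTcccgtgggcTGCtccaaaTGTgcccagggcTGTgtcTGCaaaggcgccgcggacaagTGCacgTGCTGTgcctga
Mt2: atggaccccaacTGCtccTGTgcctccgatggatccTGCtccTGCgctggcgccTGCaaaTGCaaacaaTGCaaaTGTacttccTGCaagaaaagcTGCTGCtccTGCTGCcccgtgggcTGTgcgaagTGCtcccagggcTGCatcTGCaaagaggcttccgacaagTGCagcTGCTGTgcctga
Mt3: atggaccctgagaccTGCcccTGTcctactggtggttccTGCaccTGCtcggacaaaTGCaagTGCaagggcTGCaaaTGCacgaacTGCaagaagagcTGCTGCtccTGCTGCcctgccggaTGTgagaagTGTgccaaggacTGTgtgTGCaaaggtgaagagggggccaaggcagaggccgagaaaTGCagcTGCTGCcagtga
In a global alignment, the coding sequences of Mt1 and Mt2 were identical at 79.6% of positions, those of Mt1 and Mt3 at 66.2%, and those of Mt2 and Mt3 at 67.6%. Over the last 200 bases of the transcripts compared, 1 per gene, the same pairs were identical at 60.7%, 48.5% and 46.0% of positions. No stretch of 31 bases was shared between these transcripts. The read length and the handling of reads that match several genes are not given in the sources used here, so some exchange of counts between Mt1 and Mt2 was not tested.

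Levels are given as CPM, the UMIs of a gene scaled to a total of 1000000 UMIs in the cell group, with an exact 95% Poisson interval that covers counting error only. A UMI counts a molecule and is not divided by transcript length, so CPM of the 3 genes were compared on this scale, with differences in capture left aside. RG-like cells outside the cycle numbered 1370 in control and 1121 in Smo-cKO. They formed a cluster led by Aldoc, Fabp7 and Cspg5, in which 13 RG markers passed (the Aldoc cluster), and a cluster led by 1500015O10Rik and Gfap (the Gfap cluster). In the Gfap cluster 4 passed, Vim, Mfge8, Ednrb and Ttyh1. Fabp7, Aldoc, Slc1a3, Hes5, Hopx, Sox9, Tnc and Ptprz1 did not pass there, so its name as RG-like rests on few markers. The Gfap cluster held 719 of the 1370 control cells. In the control RG-like cells, Mt3 stood at 8874 CPM (8803 to 8945) and ranked 4 among all genes. Mt1 stood at 2354 CPM (2317 to 2391) and ranked 61. Mt2 stood at 1172 CPM (1146 to 1198) and ranked 129. The metallothioneins together made up 1.24% of all UMIs of these cells in control and 1.31% in Smo-cKO.

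The levels differed between the RG-like clusters, and in opposite order for Mt3 and for the other members. In control, Mt3 was 1.90-fold higher (1.87 to 1.93) in the Aldoc cluster than in the Gfap cluster. Mt1 was lower in the Aldoc cluster, at 0.698 of the Gfap cluster (0.676 to 0.721), and Mt2 was lower as well, at 0.679 (0.649 to 0.711). The Smo-cKO library gave the same order, with ratios of 2.07 for Mt3, 0.659 for Mt1 and 0.682 for Mt2. Mt3 is among the 10 leading genes of the Aldoc cluster, and Mt1 and Mt2 are among those of the Gfap cluster, although none of them was used to form the clusters.

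**Figure D1:**
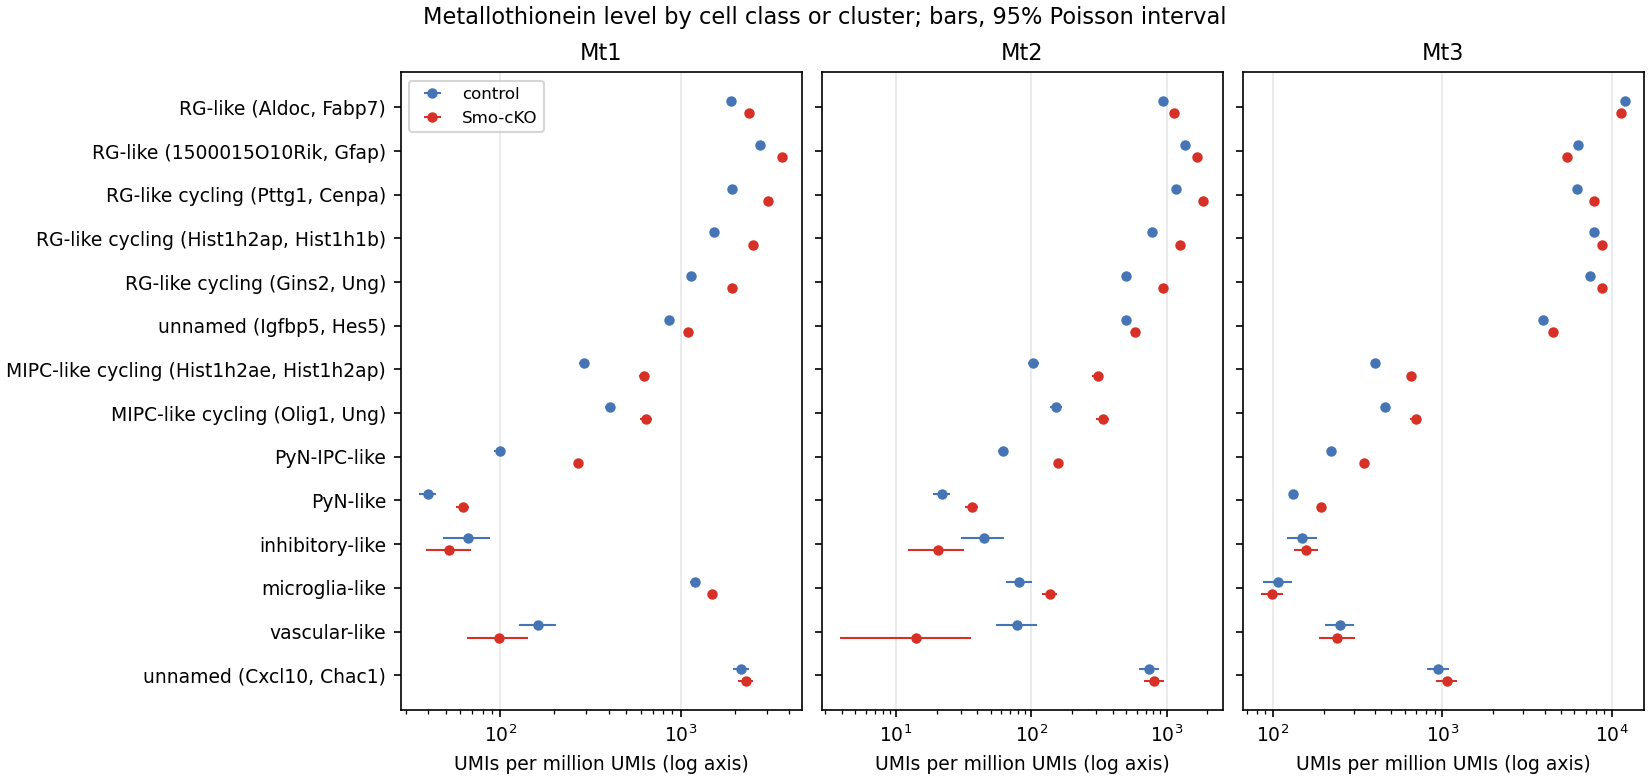
CPM (log axis) of Mt1, Mt2 and Mt3 in cell classes or clusters (rows; the leading genes of a cluster stand in parentheses), in the control (blue) and Smo-cKO (red) library, with exact 95% Poisson intervals. The highest level of each gene is in an RG-like cluster, and microglia-like cells have Mt1 at 1200 and 1495 but Mt3 at 107 and 98.6. In control, Mt1 is higher in the unnamed Cxcl10 cluster (2160) than in the Aldoc cluster (1910.5). It is also higher in control microglia-like cells than in the cycling RG-like Gins2 cluster (1136).

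Single RG-like cells spread widely. The Mt1 level of a control cell had quartiles of 755 and 3163 CPM around a median of 1639, and that of a Smo-cKO cell had quartiles of 1137 and 3698 around a median of 2141. For Mt2 the quartiles were 411 and 1682 in control (median 954) and 600.0 and 1799 in Smo-cKO (median 1077). For Mt3 they were 4314 and 13026 in control (median 8329) and 4406 and 12711 in Smo-cKO (median 8115). The distributions of the libraries overlap for every member. The highest single cell held 335 UMIs of Mt1, in the Smo-cKO library, while the median RG-like cell held 8 in control and 14 in Smo-cKO.

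**Figure D2:**
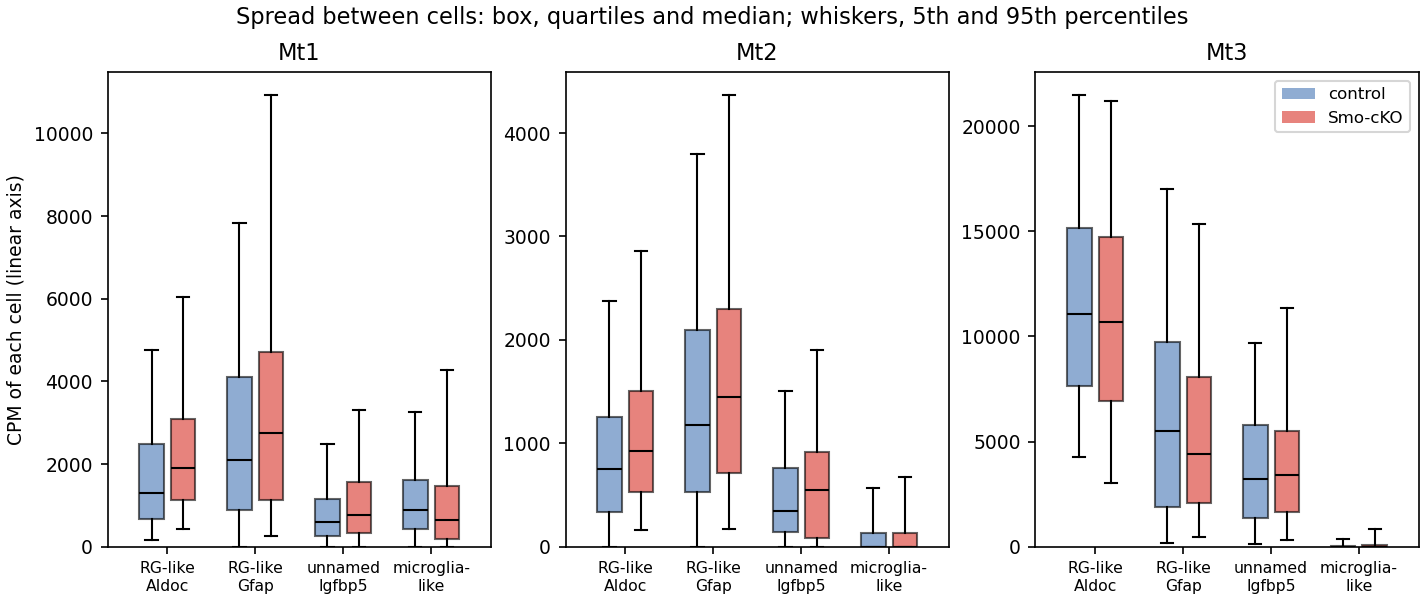
CPM of single cells (linear axis) in the RG-like Aldoc and Gfap clusters, the unnamed Igfbp5 cluster and microglia-like cells, for control (blue) and Smo-cKO (red). Boxes show the quartiles with the median and whiskers the 5th and 95th percentiles, and boxes of the libraries overlap in every group.

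Nearly every RG-like cell had a UMI of each gene. The share was 94.7% for Mt1, 91.5% for Mt2 and 97.6% for Mt3 in control, and 98.8%, 97.4% and 99.6% in Smo-cKO, where the median cell had 6865 UMIs in place of 4540.5. With every cell thinned to 2900 UMIs (1215 and 1087 cells deep enough), the shares were 91.7% and 95.8% for Mt1, 85.7% and 90.5% for Mt2, and 96.4% and 98.6% for Mt3. PyN-like cells are set beside them for comparison. In these cells the thinned shares were 7.39% and 13.1% for Mt1, 5.15% and 8.68% for Mt2, and 26.8% and 37.1% for Mt3. Unthinned, at median depths of 3215.5 and 4090 UMIs, they were 9.60% and 18.6%, 6.02% and 12.5%, and 31.02% and 47.8%.

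Over the RG-like cells of a library, Mt1 and Mt2 went together more closely than Mt1 and Mt3. Pearson's r of log levels was 0.66 (1370 control cells) and 0.68 (1121 Smo-cKO cells) for Mt1 with Mt2, and 0.44 and 0.40 for Mt1 with Mt3. Mt3 followed Aldoc, a glycolytic enzyme of radial glia and astrocytes, with r of 0.60 and 0.58, whereas Mt1 with Aldoc gave 0.05 and 0.08. The cells of a library share its depth and preparation and are no replicates, and these values include the difference between the Aldoc and the Gfap cluster. Within the Aldoc cluster alone, Mt3 with Aldoc gave 0.24 and 0.29 and Mt1 with Aldoc -0.07 and 0.16. Within the Gfap cluster they gave 0.51 and 0.43, and 0.32 and 0.23, so that the contrast between Mt3 and Mt1 was smaller there than over all RG-like cells. Mt1 with Mt3 gave 0.34 and 0.48 in the Aldoc cluster and 0.69 and 0.57 in the Gfap cluster.

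RG-like cells held far more of each member than PyN-like cells, the clusters led by Plxna4, Stmn2 and Zic1 (2208 control and 1936 Smo-cKO cells). In control, Mt1 was at 39.6 CPM (35.4 to 44.1) in PyN-like cells, Mt2 at 21.8 (18.8 to 25.2) and Mt3 at 132 (124 to 140). The ratio of RG-like to PyN-like cells was 59.5 for Mt1 (53.3 to 66.5), 53.7 for Mt2 (46.3 to 62.5) and 67.1 for Mt3 (63.3 to 71.3). Of the 10519 genes with at least 50 UMIs in this contrast, 3.28% were at least 10-fold higher in RG-like cells, and the 3 members, which were chosen for this pattern, ranked 20, 25 and 12. In Smo-cKO the ratios were 47.4, 37.8 and 45.8. At a resolution of 0.4 the Smo-cKO ratio went down to 30.2 for Mt1 and 25.7 for Mt2. Without a cell filter it went down to 30.1 for Mt1 and 26.1 for Mt2. With the Gfap cluster alone it went down to 28.3 for Mt3. The control ratio went down to 39.5 for Mt1 and 33.9 for Mt2 at a resolution of 0.4.

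Free RNA in the suspension can give UMIs of abundant RG genes in cells that do not make them, so the members were set beside 10 RG-restricted genes, among them Fabp7, Aldoc and Slc1a3. In control, the PyN-like level was 1.68% of the RG-like level for Mt1, 1.86% for Mt2 and 1.49% for Mt3, and that of the reference genes ran from 0.993% to 7.73% with a median of 3.17%. In Smo-cKO the members were at 2.11%, 2.65% and 2.18%, and the reference genes ran from 0.900% to 7.85% with a median of 2.90%. The members thus lay within the range of the reference genes in both libraries. That range is not a measured background, since the reference genes may themselves be transcribed in PyNs, and the share of free RNA in the PyN-like values was not tested. The percents also depend on the mix of RG-like clusters. The reference genes together stood at 41334 CPM in the Aldoc and 8546 in the Gfap cluster in control, and at 41288 and 10067 in Smo-cKO.

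**Figure D3:**
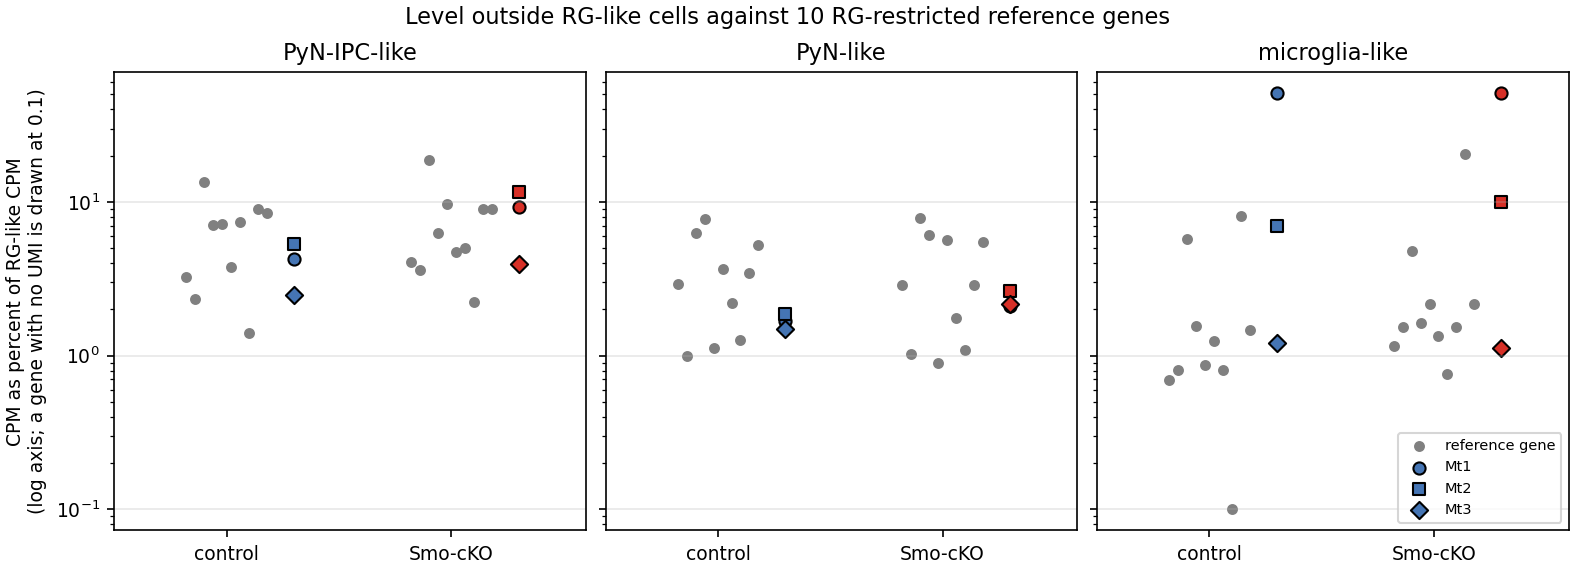
CPM in PyN-IPC-like, PyN-like and microglia-like cells as a percent of the RG-like CPM of the same library (log axis; a gene with no UMI is drawn at 0.1), for 10 RG-restricted reference genes (grey) and for Mt1 (circle), Mt2 (square) and Mt3 (diamond). Mt1 in microglia-like cells (both clusters pooled), at 51.0% in both libraries, lies above every reference gene, and all 3 members in PyN-like cells lie within the reference range.

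Microglia-like cells, whose 10 markers all passed in both clusters, had a profile of their own. Mt1 was at 1200 CPM (1133 to 1271) in 97 control cells and at 1495 (1440 to 1552) in 176 Smo-cKO cells, which is 51.0% of the RG-like level in each library. Mt2 was at 81.8 CPM (64.9 to 102) and 137 (121 to 155), and Mt3 at 107 (87.6 to 129) and 98.6 (84.8 to 114). Over both clusters pooled, Mt1 lay far above the highest reference gene, which reached 8.14% of its RG-like level in control and 20.4% in Smo-cKO. The cluster led by Spp1 held Mt1 at 1272 CPM in control and 2048 in Smo-cKO. That led by 1600014C10Rik held 903 and 615 CPM, and had 25 of the 97 control but 100 of the 176 Smo-cKO cells. The reference genes were not compared within each cluster. Mt3, at 1.21% and 1.12%, lay near the reference medians of 1.06% and 1.57%, and single cells held 45 of its 106 UMIs in control and 55 of 181 in Smo-cKO. Mt2, at 6.98% and 10.1%, lay within the reference range. Thinned to 2900 UMIs, 85.3% of control and 73.8% of Smo-cKO microglia-like cells kept an Mt1 UMI.

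The balance of the members differed between cell types. Mt1 exceeded Mt2 by 2.01-fold (1.95 to 2.06) in control RG-like cells, by 1.599-fold in PyN-IPC-like cells and by 1.81-fold in PyN-like cells, but by 14.7-fold (11.7 to 18.6) in microglia-like cells. In Smo-cKO the values were 2.15, 1.72, 1.71 and 10.9. Mt3 exceeded Mt1 by 6.23-fold in the Aldoc cluster and by 2.29-fold in the Gfap cluster of the control library, whereas in microglia-like cells Mt3 was 0.0892 of Mt1. Each of these ratios is taken within 1 set of cells and does not depend on scaling to the total.

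In the Smo-cKO library Mt3 over Mt1 was lower than in control in the RG-like clusters, in 1 MIPC-like cluster and in PyN-IPC-like cells. Mt3 over Mt1 was 4.69 in the Aldoc cluster and 1.49 in the Gfap cluster, against 6.23 and 2.29 in control. In the 3 cycling RG-like clusters it went from 3.25, 5.14 and 6.56 to 2.57, 3.45 and 4.50. In PyN-IPC-like cells it went from 2.22 (2.05 to 2.40) to 1.28 (1.21 to 1.36). In the MIPC-like cluster led by Hist1h2ae it went from 1.37 (1.28 to 1.47) to 1.05 (0.955 to 1.15). The intervals of the libraries did not overlap in any of these groups. They did overlap in the MIPC-like cluster led by Olig1 (1.13 and 1.08) and in PyN-like cells (3.34 and 3.11). The small MIPC-like cluster led by Pdgfra (8 and 11 cells) had the opposite order, at 1.21 (0.563 to 2.66) and 1.53 (1.03 to 2.31). So did the microglia-like cluster led by 1600014C10Rik, at 0.0520 (0.0234 to 0.101) and 0.188 (0.147 to 0.239), with intervals that did not overlap. Inhibitory-like cells (2.26 and 3) and vascular-like cells (1.53 and 2.43) were also higher in Smo-cKO, with intervals that overlap. The microglia-like cluster led by Spp1 was lower in Smo-cKO, at 0.0955 and 0.0429.

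**Figure D4:**
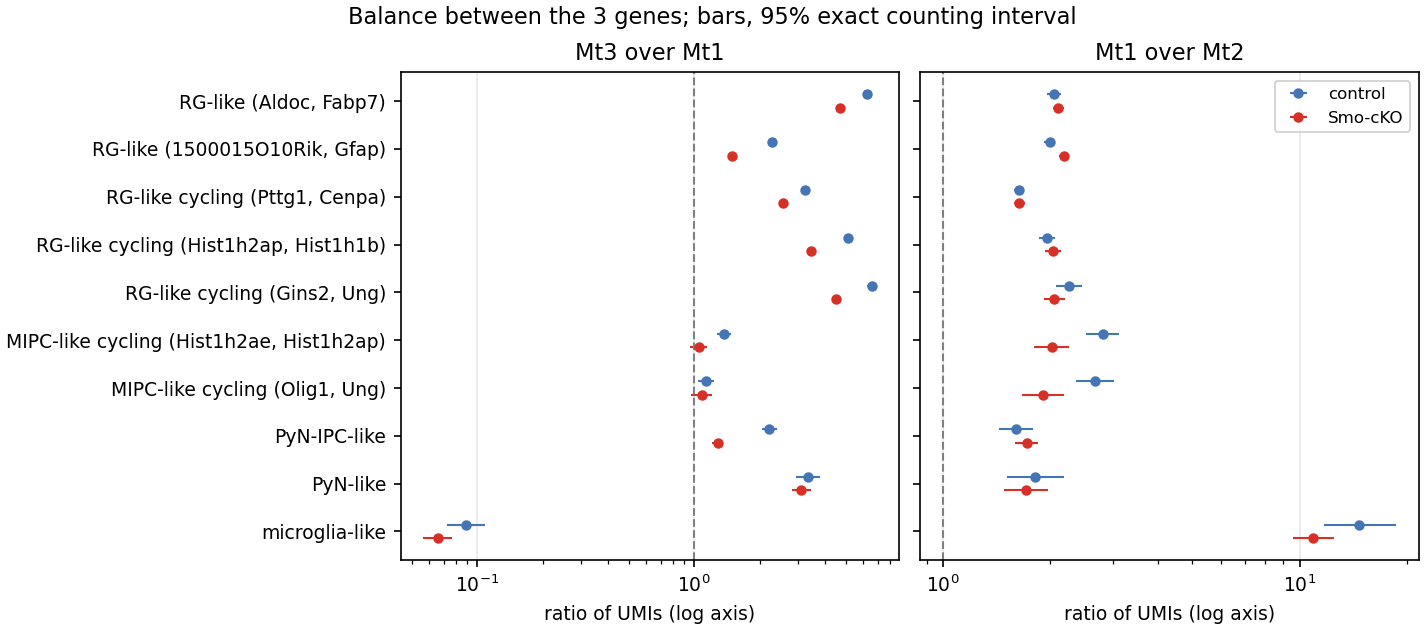
Ratio of UMIs of Mt3 over Mt1 (left) and of Mt1 over Mt2 (right) by cluster or class (log axes), in control (blue) and Smo-cKO (red), with exact 95% counting intervals. Mt3 over Mt1 is lower in Smo-cKO in all RG-like clusters, and microglia-like cells lie apart at 14.7 and 10.9 for Mt1 over Mt2.

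Between the genotypes, the RG-like cells of the Smo-cKO library held more Mt1 and Mt2, and about as much Mt3. Mt1 was at 2931 CPM (2894 to 2968), which is 1.245 times the control level (1.22 to 1.27). Mt2 was at 1366 CPM (1341 to 1392), which is 1.17 times (1.13 to 1.20). Mt3 was at 8824 CPM (8760 to 8888), with a ratio of 0.994 (0.984 to 1.01). With 1 CPM added, 0 of the 3 members differed by a log2 ratio of at least 0.322 in either direction, a threshold that was set with the values known and that Mt1, at 0.316 without the added CPM, narrowly missed. Of the 10534 genes with at least 50 UMIs, 14.7% were higher and 11.5% lower by this much, with a median log2 ratio of 0.01. Mt1 stood above 84.9% of these genes, Mt2 above 77.8% and Mt3 above 46.4%. The members were chosen with this contrast known, and nothing is read from these shares.

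The direction for Mt3 in RG-like cells depended on which cells were counted. Within the Aldoc cluster alone its ratio was 0.948 (0.935 to 0.961) and within the Gfap cluster alone 0.870 (0.853 to 0.887), and the interval of the pooled ratio included 1. The Aldoc cluster, where Mt3 is higher, made up more of the RG-like cells in Smo-cKO (665 of 1121) than in control (651 of 1370). With the cycling clusters included it was 1.11. Mt1 was at 1.26 in the Aldoc cluster and 1.34 in the Gfap cluster, and Mt2 at 1.22 in each, so that both were higher in Smo-cKO within each cluster. Taken over cells with at least 2900 UMIs, each cell weighing the same, the ratios were 1.247 for Mt1, 1.17 for Mt2 and 0.986 for Mt3. Libraries differed in depth, and this alternative leaves out shallow cells but does not make the depths equal.

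In dividing RG-like cells, the difference for Mt1 and Mt2 was larger. In the cluster led by the mitotic gene Pttg1, Mt1 went from 1914 to 3037 CPM, a ratio of 1.59 (1.54 to 1.64), and Mt2 from 1173 to 1855 CPM, a ratio of 1.58 (1.52 to 1.64). In the clusters led by the histone gene Hist1h2ap and by the replication factor gene Gins2, the ratios were 1.66 and 1.70 for Mt1, and 1.604 and 1.87 for Mt2. Mt3 was also higher there, at 1.26 in the Pttg1, 1.12 in the Hist1h2ap and 1.17 in the Gins2 cluster. An unnamed cluster with Igfbp5, Hes5 and Notch2 in its lead gave 1.27, 1.17 and 1.14 for Mt1, Mt2 and Mt3, with a median depth of 5928 UMIs in control and 2567 in Smo-cKO.

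The ratios of all members were larger in the MIPC-like and PyN-IPC-like clusters described next, which hold less of these transcripts, than in the Aldoc and Gfap clusters. In MIPC-like cells, which express Egfr, Olig1 and Olig2 and give rise to glia and interneurons, the cluster led by Hist1h2ae had Mt1 at 290 CPM (275 to 306) in control and 625 (585 to 668) in Smo-cKO. Its Mt2 went from 104 to 311 CPM, a ratio of 2.996 (2.63 to 3.42), and its Mt3 from 397 to 655 CPM, a ratio of 1.65 (1.52 to 1.78). In the MIPC-like cluster led by Olig1, the ratios were 1.58 for Mt1, 2.21 for Mt2 and 1.51 for Mt3. These clusters held 635 and 427 control cells but 131 and 105 Smo-cKO cells. Over both clusters, the summed RG-restricted reference genes described above went from 3266 to 5348 CPM, and their single ratios ran from 1.05 (Hes5) to 4.70 (Hopx), with 3.35 for Aldoc, 1.6004 for Fabp7 and 1.16 for Slc1a3. Hbb-bs, a hemoglobin gene of red blood cells, gave 3.63 (3.48 to 3.79) in the cluster led by Hist1h2ae and 0.0141 (0.00945 to 0.0203) in that led by Olig1. The part of these transcripts in the metallothionein ratios was not tested.

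PyN-IPC-like cells, the Eomes-expressing precursors of pyramidal neurons, had Mt1 at 99.5 CPM (93.0 to 106) in 1982 control cells and at 270 CPM (258 to 282) in 1255 Smo-cKO cells, a ratio of 2.71 (2.50 to 2.94). Mt2 went from 62.2 to 157 CPM, a ratio of 2.53 (2.28 to 2.80), and Mt3 from 221 to 346 CPM, a ratio of 1.57 (1.48 to 1.66). The cluster led by Neurog2, a proneural factor that acts early in this lineage, held 2.47 times the Mt1 of the cluster led by Kif26b in control and 2.72 times in Smo-cKO. Each of these clusters gave a ratio above 1 between the libraries, at 2.52 and 2.29 for Mt1, 2.23 and 2.54 for Mt2, and 1.48 and 1.56 for Mt3.

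Beside these ratios stand those of the RG-restricted reference genes in the same PyN-IPC-like cells, which ran from 0.771 (Hes5) to 2.50 (Tnc), with 2.46 for Aldoc, 1.48 for Fabp7 and 1.05 for Slc1a3. Mt1 and Mt2 lay above all 10 of them, with intervals that overlap those of Aldoc and Tnc, and Mt3 lay within their range. As a percent of the RG-like level of the same library, Mt1 went from 4.23% to 9.21% and Mt2 from 5.31% to 11.5%, within the reference range of 1.41% to 13.4% in control and 2.23% to 18.6% in Smo-cKO. Hbb-bs went from 2414 to 3638 UMIs in these cells, a ratio of 1.90 (1.80 to 2.00), and Hba-a1 gave 1.72 (1.62 to 1.83). The part of free RNA and of precursors that still hold RG transcripts in these values was not tested. Without the filter on cells, with the clusters built anew, the ratios fell to 1.61, 1.49 and 1.05.

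**Figure D5:**
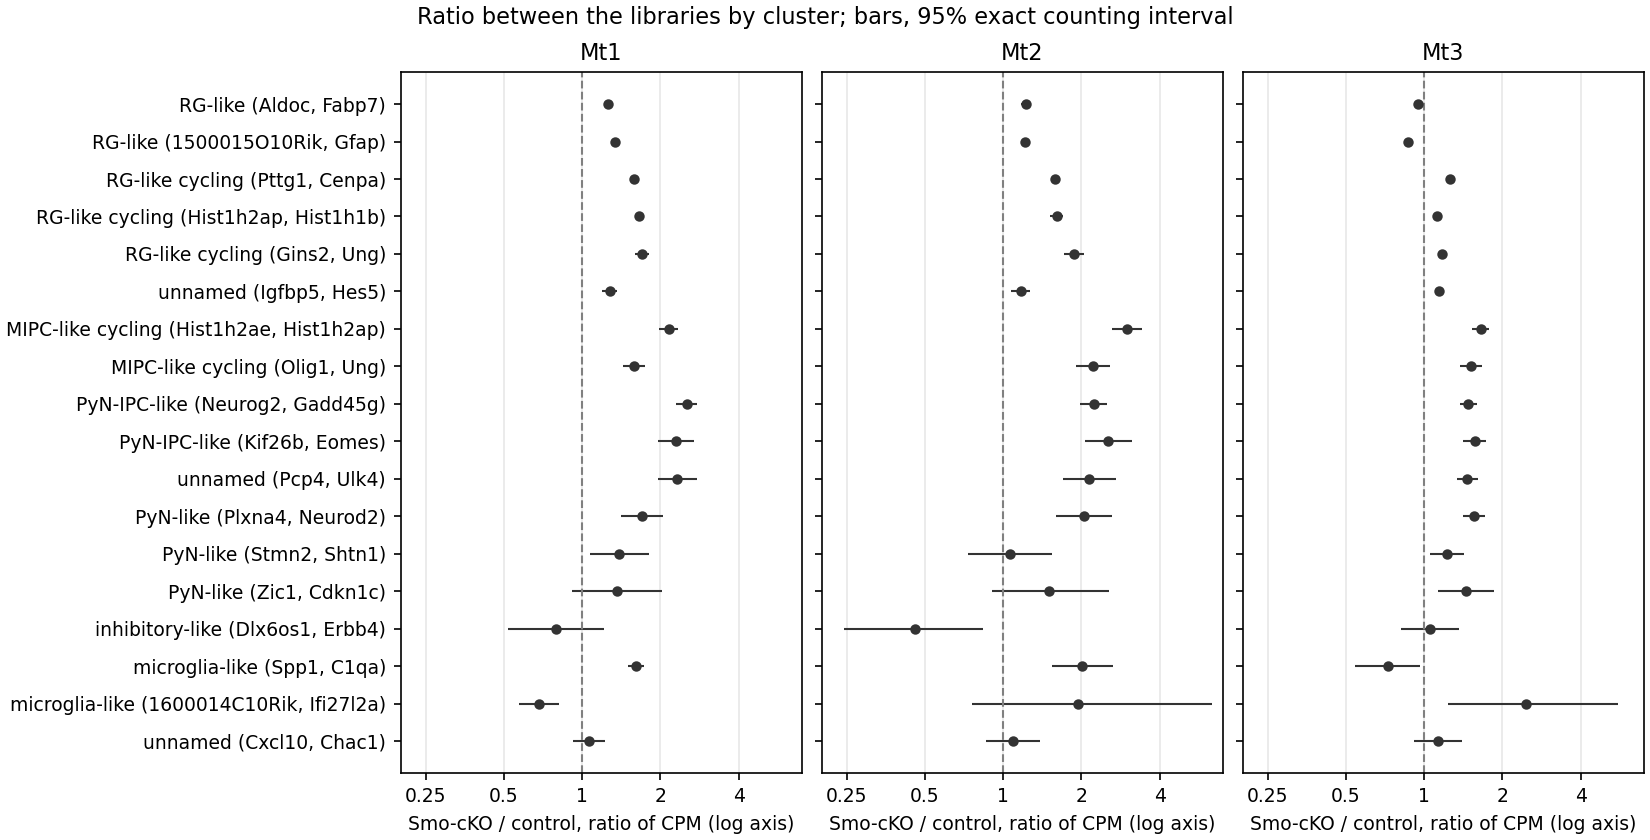
Ratio of CPM in Smo-cKO over control (log axis) for Mt1, Mt2 and Mt3 in 18 clusters, with exact 95% counting intervals and a dashed line at 1. Mt1 and Mt2 lie right of the line in every RG-like and progenitor cluster, and Mt3 lies left of it in the Aldoc (0.948) and Gfap (0.870) clusters.

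In PyN-like cells the ratios were 1.56 (1.36 to 1.80) for Mt1, 1.66 (1.38 to 2.00) for Mt2 and 1.46 (1.35 to 1.57) for Mt3. Aldoc gave 1.64, Fabp7 1.19 and Hbb-bs 1.49 in the same cells. The PyN-like clusters differed, in the order Plxna4, Stmn2 and Zic1. Mt1 gave 1.70, 1.39 and 1.36 (0.915 to 2.03). Mt2 gave 2.04, 1.06 (0.731 to 1.54) and 1.51 (0.905 to 2.55). Mt3 gave 1.55, 1.23 and 1.45. Intervals are shown where they include 1. Inhibitory-like cells gave 0.793 (0.520 to 1.21) for Mt1, 0.457 (0.244 to 0.834) for Mt2 and 1.05 (0.813 to 1.37) for Mt3, on 31 and 19 UMIs for Mt2. In vascular-like cells Mt2 rested on 34 and 4 UMIs.

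Microglia-like cells gave no single direction for Mt1. In the cluster led by Spp1, C1qa and Ly86 (72 control and 76 Smo-cKO cells), Mt1 went from 1272 to 2048 CPM, a ratio of 1.61 (1.50 to 1.74). In the cluster led by 1600014C10Rik, Ifi27l2a and Plac8, immune genes that are also known from monocytes and macrophages (25 and 100 cells), it went from 903 to 615 CPM, a ratio of 0.681 (0.570 to 0.817), and a single control cell there held 88 of 173 UMIs. The pooled ratio was 1.246 (1.16 to 1.33), and it turned to 0.924 when every cell weighed the same. It was 0.913 with equal weights over cells with at least 2900 UMIs. The median depth in the Spp1 cluster was 8724.5 UMIs in control and 15748.5 in Smo-cKO.

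A small unnamed cluster of 39 control and 38 Smo-cKO cells was led by stress genes (Cxcl10, Chac1, Herpud1, Nupr1). Its Mt1 level, 2160 CPM (1955 to 2380) in control and 2290 (2073 to 2523) in Smo-cKO, was close to that of RG-like cells, but its Mt3 level was only 942 and 1063 CPM. Mt3 was accordingly 0.436 of Mt1 in control and 0.464 in Smo-cKO. In RG-like cells the reference genes together stood at 23720 CPM in control and 28136 in Smo-cKO. They stood at 41334 and 41288 CPM in the Aldoc cluster and at 8546 and 10067 in the Gfap cluster. In the small unnamed cluster they stood at 2777 and 4005 CPM. A single cell held 138 of the 406 Mt1 UMIs in control and a single cell 104 of 407 in Smo-cKO, so the level rests on few cells.

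The genes whose pattern was most like each member were found by Pearson's r of log2 CPM over 40 points, which were the clusters of each library with at least 20 cells, among 8058 other genes with at least 1000 UMIs. For Mt1 these were Phgdh (0.90), Camk2d (0.89), Hsd17b12 (0.89), Magt1 (0.89) and Eef1d (0.87). For Mt2 they were Phgdh (0.96), Ccdc80 (0.94), Trip6 (0.93), Pdpn (0.93) and St13 (0.92), so that Phgdh, the first enzyme of serine synthesis, headed both lists. For Mt3 they were Ttyh1 (0.98), Clu (0.98), Mlc1 (0.98), Hepacam (0.97) and Aldh1l1 (0.97), of which Mlc1, Hepacam and Aldh1l1 are known from astrocytes. Mt1 with Mt2 gave 0.90, Mt2 with Mt3 0.90 and Mt1 with Mt3 0.74. The points share libraries, and no p is given.

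Genes that handle metals or are known to act on metallothionein transcription were looked at in RG-like cells by lists. Mtf1, the zinc-sensing factor that drives Mt1 and Mt2, went from 15.3 to 19.6 CPM, a ratio of 1.28 (0.996 to 1.66), and the zinc exporter gene Slc30a1, another MTF1 target, gave 1.04 (0.731 to 1.47). Of the zinc exporters and MTF1, 8 genes had at least 50 UMIs, of which 1 was higher by a log2 ratio of at least 0.322 and 0 lower (median log2 ratio 0.08). Their lowest ratios were 0.905 (Slc30a10) and 0.986 (Slc30a9), and after Mtf1 the highest was 1.24 (Slc30a6). The 10 zinc importers had 1 higher and 0 lower (median 0.13), from 0.903 (Slc39a11) and 0.995 (Slc39a12) to 1.28 for both Slc39a3 and Slc39a14. The 8 copper genes had 0 higher and 1 lower (median 0.05), from 0.507 (Cp) and 0.924 (Atp7a) to 1.13 (Slc31a1) and 1.248 (Ccs). Over all genes tested, 14.7% were higher and 11.5% lower by this measure.

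Of the lists of stress and hormone genes, the 14 NRF2 and oxidative stress genes had 2 higher and 2 lower (median 0.01), with Nfe2l2 at 1.72 (1.54 to 1.92) and Gclm at 1.29 against Hmox1 at 0.661 and Gsr at 0.773. The 8 glucocorticoid response genes had 2 higher and 2 lower (median 0.05), with Cdkn1a at 10.1 (7.96 to 12.9), a cell cycle inhibitor that also answers to p53, and Klf9 at 1.98, against Fkbp5 at 0.536 and Per1 at 0.724. The 7 genes of the STAT3 axis had 2 higher and 1 lower (median -0.01), from Jak2 at 0.767 and Socs3 at 0.906 to Gfap at 1.30 and Lifr at 1.73. The 10 dissociation stress genes had 1 higher and 5 lower (median -0.33), from Egr1 at 0.494 and Fosb at 0.533 to Zfp36 at 1.12 and Dusp1 at 1.36. The 10 reference genes had 4 higher and 1 lower (median 0.22), with Fabp7 at 1.19, Aldoc at 1.58 and Slc1a3 at 0.753, and from 0.753 (Slc1a3) and 0.874 (Ttyh1) to 1.58 (Aldoc) and 1.61 (Hopx). The median for the 3 metallothioneins was 0.22.

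Genes near the cluster on chromosome 8 had lower levels. Nudt21, a subunit of the mRNA cleavage factor, gave 0.881 (0.818 to 0.949), and Ogfod1 (1.06), Bbs2 (1.22) and Nup93 (1.21) gave intervals that include 1. The UMIs of Mt3, 59797 in control and 72415 in Smo-cKO, compare with 56 and 83 for Bbs2.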

How the data were processed

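The authors deposited UMI counts per gene and cell, not normalized, in 1 table for both mouse libraries. Per the labels' processing notes the tools were Cell Ranger, StringTie and Seurat 3, with the build mm10; the annotation version is not given in the sources used here. The ferret table of the series was not used here. The members and lists were chosen with earlier results of these data known.

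Cells with 750 to 5000 genes and under 10% mitochondrial UMIs were kept, as the study's methods state, which removed 26 control and 387 Smo-cKO cells. The libraries shared 28 barcodes. No doublet caller was run and doublets were kept; an alternative left out the deepest 5% of cells. Cells were integrated and clustered in Seurat 5.3.0 (R 4.3.3; 2000 variable genes without the compared metal genes, 30 dimensions, resolution 0.8). Each cluster was named for the class that had most markers (at least 3) at 1 log2 unit higher than in other cells (10 CPM added) and present in 10% of its cells, and stayed unnamed where its 10 leading genes favored another class. Clusters and names were rebuilt here, since no annotation of cells was used.

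Cells were tied to a genotype by barcode suffix and the cell numbers the study states. UMIs were summed per class and library, and shares of cells were also taken after thinning each cell to 2900 UMIs. The lists were zinc exporters and MTF1, zinc importers, copper handling, NRF2 and oxidative stress, glucocorticoid response, STAT3 axis, dissociation stress and RG-restricted reference genes. Levels have exact Poisson, shares exact Clopper-Pearson and ratios exact conditional binomial 95% intervals (python 3.11.15, scipy 1.17.1), which leave out all but counting error. No test was made, as each genotype had 1 library. The ratio and its interval were run on simulated Poisson counts of 10534 genes with known folds. Such counts follow the model the interval assumes and hold no spread between cells, so the run only checks the computation. Named genes were the members (Mt4 was not analysed here), Mtf1, Slc30a1, the 2 highest and 2 lowest of each list with at least 50 UMIs, 5 genes most like each member, and Fabp7, Aldoc and Slc1a3; neighbors, genes that lead clusters and genes that check labels were added after values were seen. Sequences come from GENCODE M21 transcripts. Alternatives used edgeR 4.0.16 and DESeq2 1.42.0 factors, other clusterings, cell filters and weights.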

Additional observations from a re-analysis of the deposited data

How the results depend on the processing

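No paired analysis was possible because each genotype had 1 library, and for the same reason no replicate could be left out. In RG-like cells, the Smo-cKO to control ratio of Mt1 lay between 1.21 and 1.46 and that of Mt2 between 1.14 and 1.41 under 16 alternatives, above 1 in all of them. That of Mt3 lay between 0.870 and 1.11, above 1 in 7 of 16, so that no direction is given for it. The cause of these shifts was not tested.

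The values that moved follow in the order Mt1, Mt2, Mt3. The ratio of Smo-cKO to control in RG-like cells was 1.36, 1.29 and 1.04 without integration, 1.46, 1.41 and 1.09 at resolution 0.4, and 1.36, 1.30 and 1.07 without a cell filter. It was 1.44, 1.36 and 1.11 with cycling clusters, and 1.31, 1.23 and 1.01 with cells chosen by markers. Resolution 1.6 gave 1.22 for Mt2 and 0.952 for Mt3, keeping the compared genes in the clustering gave 1.21 for Mt1 and 0.969 for Mt3, and a stricter cell filter gave 0.981 for Mt3. The ratio of RG-like to PyN-like cells in control was 45.6, 40.1 and 56.6 without integration, 48.1, 39.4 and 83.0 at resolution 1.6, 74.5, 64.2 and 76.6 with every cell weighing the same, and 75.6, 64.9 and 78.6 without the deepest 5% of cells. For Mt1 and Mt2 it was 39.5 and 33.9 at resolution 0.4 and 40.2 and 36.4 without a cell filter. For Mt1 and Mt3 it was 49.3 and 58.6 with cycling clusters and 53.1 and 73.4 with cells chosen by markers. For these 2 genes it was 73.1 and 73.4 with equal weights over cells with at least 2900 UMIs. With the compared genes kept it was 67.5 for Mt1.

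Of the 16 alternatives in RG-like cells, 3 were chosen after seeing the data. With the Aldoc cluster alone, the genotype ratio was 1.22 for Mt2 and 0.948 for Mt3, and RG-like to PyN-like 48.3, 42.8 and 90.0. With the Gfap cluster alone these were 1.34, 1.22 and 0.870, and 69.1, 63.0 and 47.4. With the unnamed Igfbp5 cluster counted as RG-like they were 1.37, 1.26 and 1.09, and 48.9, 45.1 and 56.7.

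In microglia-like cells the genotype ratio of Mt1 turned below 1 at equal cell weights (0.924). With equal weights over cells with at least 2900 UMIs, which does not make the depths equal, it was 0.913 for Mt1 and 0.947 for Mt2. Without the deepest cells it was 0.835 for Mt1 and 0.884 for Mt2. Depth limits the statements on Mt2 in inhibitory-like, vascular-like and microglia-like cells, which rest on few UMIs.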
